A study of Mus musculus with 47 samples.

Results

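The genes described here encode the proteins of the cytosolic ribosome. They were taken by symbol from the protein-coding genes of RefSeq's mouse annotation (GRCm38.p6, the assembly called mm10): Rpl or Rps followed by a digit, plus Rplp0, Rplp1, Rplp2 and Rpsa, without the Rps6k kinases and without names in -ps, which mark pseudogenes. This gave 89 of 21883 protein-coding genes, of which 46 were core genes of the large subunit, 31 were core genes of the small subunit and 12 stood outside that core. A gene was counted as having a peak where a peak lay within 2 kb of either of its ends. The background was the 13869 genes with an H3K4me3 peak there in untreated control cells, which were 63.4% of all protein-coding genes and included 80 of the 89 ribosomal protein genes. Percentages below are of these 80 and of these 13869 unless stated otherwise. Among the 12 genes outside the core, Rpl22l1, Rpl36al, Rpl3l, Rpl10l, Rpl39l, Rpl7l1, Rps27l, Rpl37rt, Rpl32l, Rps27rt and Rps23rg1 are named as relatives or copies of core genes, and Rps19bp1 encodes a protein that binds RPS19 and met the rule only by its letters.

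The cytosolic ribosome joins a small subunit, which reads the mRNA, to a large subunit, which forms the peptide bond. Its proteins are made in equal amounts from genes scattered over the genome, which are short and among the most active of growing cells. Many of their mRNAs start with a C followed by a run of pyrimidines, the 5′ terminal oligopyrimidine sequence through which growth signals control their translation.

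The assay was ChIP-seq of NMuMG, a line of normal mouse mammary gland epithelium that turns mesenchymal under TGFβ1. Cells of the control or the Pbrm1 knockout (KO) genotype were left untreated (0 h) or received 5 ng/ml TGFβ1 for 24 or 48 h. Pbrm1 encodes a bromodomain subunit of PBAF, a SWI/SNF chromatin remodeller, of which PHF10 is another subunit and BRG1 the ATPase. ATF3, FOSL2 and FOSB are transcription factors of the bZIP family. PHF10 was profiled in control cells at 0 h (2 libraries), 24 h (1 library) and 48 h (2 libraries) and in KO cells at 0 and 48 h (1 library each), and BRG1 in control cells at 0 h. ATF3 was profiled in both genotypes at 0, 24 and 48 h and FOSL2 and FOSB in both at 0 and 48 h. The marks H3K4me3, H3K4me1, H3K27ac, H3K14ac and H3K18ac were profiled in control cells only, at 0 and 48 h, with 1 library each. The labels do not say whether replicates came from separate cultures, nor whether the KO cells are a clone or a pool. The spread behind the p-value given for PHF10 may thus be technical.

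Over the whole series, 32 of 47 samples have a peak list and 15 are inputs. The lists differ in length from 2 to 158815 peaks and the number of reads behind them is unknown, so that a share of genes moves with the length of its list. Of 10 epithelial marker genes, 10 had an H3K4me3 and 10 an H3K27ac peak at 0 h, against 4 and 2 of 10 markers of other cell types. Brackets hold 95% intervals (exact, Clopper-Pearson). They reflect counting error alone. Fold is the authors' enrichment over input at a peak and is compared only within a list, where a percentile of 100 is the list's strongest peak.

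The promoter table of RefSeq held 69 of the 89 genes, 61 of them among the 80. The genomic sequence at the start is shown first, because the pyrimidine start was found in a larger share of these genes than of the background. A C at the annotated start base with pyrimidines at the next 4 bases was found in 15 of the 69 genes, and in 14 of the 61 (23.0%) against 2.99% of 11038 background genes in the table. The lines below run from 15 bases before the start base to 14 after it, on the gene's own strand, and capitals mark the pyrimidine run from the start base on.
Rpl14: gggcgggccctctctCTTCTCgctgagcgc
Rpl15: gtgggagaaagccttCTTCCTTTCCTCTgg
Rpl28: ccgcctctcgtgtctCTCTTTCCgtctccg
Rpl32l: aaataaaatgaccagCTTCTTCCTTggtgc
Rpl35: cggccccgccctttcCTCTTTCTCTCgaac
Rpl35a: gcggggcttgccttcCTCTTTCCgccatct
Rpl38: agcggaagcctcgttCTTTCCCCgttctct
Rplp2: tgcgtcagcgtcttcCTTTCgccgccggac
Rps10: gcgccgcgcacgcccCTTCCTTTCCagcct
Rps15a: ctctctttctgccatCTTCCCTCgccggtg
Rps18: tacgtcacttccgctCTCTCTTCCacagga
Rps21: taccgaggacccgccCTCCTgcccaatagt
Rps27: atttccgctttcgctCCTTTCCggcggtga
Rps27rt: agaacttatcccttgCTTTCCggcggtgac
Rps6: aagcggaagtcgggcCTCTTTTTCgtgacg
The run was longest in Rpl15 (13 bases), a large subunit protein, and Rpl35 (11 bases), which lies near the exit of the peptide tunnel. It had 10 bases in Rps10 and in Rpl32l and 5 in Rplp2, a protein of the large subunit's stalk, and in Rps21. When the run could begin within 10 bases of the annotated start, 35 of the 61 genes (57.4%) had it against 36.1% of the background. The count thus depends on where the run may begin.

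Of the motifs searched on both strands in 300-base windows (250 bases before the start and 50 from it on), the ETS core CCGGAAG differed most from the background in percentage points. It was present in 24 of 61 genes (39.3% [27.1 to 52.7]) against 18%, and in 12.9% of all 17491 promoters of the table. The YY1 motif AAGATGGC was present in 6 (Rpl13a, Rpl22, Rpl35a, Rpl7l1, Rps15a and Rps27), 9.84% [3.70 to 20.2] against 4.67%. The cyclic AMP response element TGACGTCA, a site that ATF proteins can bind, was present in 4 genes (Rpl13, Rpl18, Rpl26 and Rpl27a), 6.56% against 3.39%. The AP-1 site TGANTCA, which FOS proteins bind, was present in 2 genes (Rpl22 and Rpl9), 3.28% against 5.72%. The GC box GGGCGG was present in 63.9% against 68.9%, CCAAT in 31.1% against 41.6%, the E-box CACGTG in 9.84% against 11.5%, TATAAA in 9.84% against 8.86% and the NRF1 motif GCGCATGCG in 4.92% against 3.82%. Among these 9 motifs, the interval of the ribosomal protein genes excluded the background value only for ETS. A match describes letters in a window and not a bound site.

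**Figure D1:**
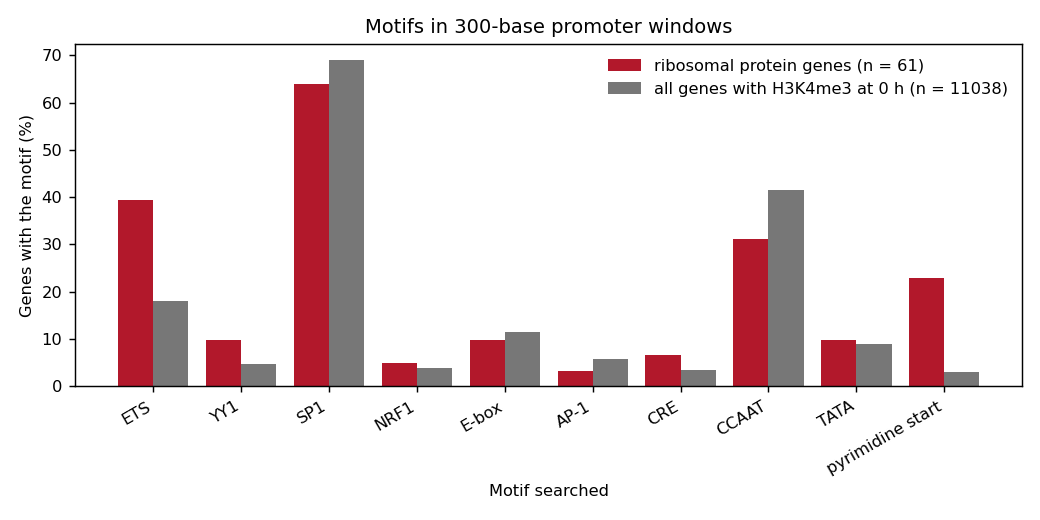
Share of genes (vertical axis, percent) whose 300-base promoter window held each motif, for 61 ribosomal protein genes (red) and 11038 background genes (grey), with the pyrimidine start at the right. The ETS core (39.3% against 18%) and the pyrimidine start (23.0% against 2.99%) stand above the background.

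The strand of 280 bases ending 30 bases into the gene is printed for 4 genes that differ in PHF10 at 0 h, with capitals for every match to the 9 motifs. Rps3a1 and Rpsa had PHF10 peaks in both control 0 h lists, with the replicate 2 peak covering the start. Rpl27a and Rps15 had strong H3K4me3 and no PHF10 peak in either list. The stretches lie at chr3:86142639-86142918 (minus strand), chr9:120127516-120127795 (plus strand), chr7:109518945-109519224 (plus strand) and chr10:80292181-80292460 (plus strand) of GRCm38.p6.
Rps3a1: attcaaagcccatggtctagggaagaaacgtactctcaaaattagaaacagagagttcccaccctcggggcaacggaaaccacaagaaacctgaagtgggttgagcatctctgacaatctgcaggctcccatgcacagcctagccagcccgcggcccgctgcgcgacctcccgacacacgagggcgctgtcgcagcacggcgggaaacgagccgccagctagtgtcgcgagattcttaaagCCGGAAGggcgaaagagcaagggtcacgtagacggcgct
Rpsa: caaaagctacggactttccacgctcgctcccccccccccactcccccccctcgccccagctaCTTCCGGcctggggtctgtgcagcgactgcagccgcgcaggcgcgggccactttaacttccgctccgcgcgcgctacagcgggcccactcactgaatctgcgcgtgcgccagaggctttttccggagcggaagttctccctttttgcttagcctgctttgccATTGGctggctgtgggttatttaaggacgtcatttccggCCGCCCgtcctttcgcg
Rpl27a: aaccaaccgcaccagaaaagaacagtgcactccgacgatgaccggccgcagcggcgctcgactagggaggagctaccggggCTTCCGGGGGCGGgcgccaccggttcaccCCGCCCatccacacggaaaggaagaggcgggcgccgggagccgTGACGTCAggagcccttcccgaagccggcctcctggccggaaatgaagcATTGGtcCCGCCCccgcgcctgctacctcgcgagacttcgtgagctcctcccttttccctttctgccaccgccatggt
Rps15: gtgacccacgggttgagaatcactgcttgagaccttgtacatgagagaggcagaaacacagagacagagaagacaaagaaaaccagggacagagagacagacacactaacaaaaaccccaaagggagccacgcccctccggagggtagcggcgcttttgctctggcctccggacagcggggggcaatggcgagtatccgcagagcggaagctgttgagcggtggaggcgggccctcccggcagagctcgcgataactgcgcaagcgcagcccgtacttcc
Both genes with PHF10 held the ETS core, as did Rpl27a, which also held the cyclic AMP response element and GC boxes. No motif searched was found in the Rps15 stretch. Rps3a1 encodes a small subunit protein and had PHF10 folds of 13.6 and 5.85 in the control 0 h lists, 5.49 in KO at 0 h, 5.01 at 24 h, 3.66 and 2.63 in control at 48 h and 3.44 in KO at 48 h. Rpsa, the small subunit protein also known as the laminin receptor, had 10.0 and 5.49, then 4.57, 6.33, 3.21 and 4.0, and 3.18 in the same order. Rpl27a, a large subunit protein, had no PHF10 peak in the control 0 h lists and folds of 4.26 in KO at 0 h, 3.97 at 24 h, 4.14 and 3.54 in control at 48 h and 2.94 in KO at 48 h. Rps15, a protein of the small subunit's head, likewise had none in the control 0 h lists, and 4.71 in KO at 0 h, 3.75 at 24 h, 2.68 and 2.62 in control at 48 h and 3.54 in KO at 48 h. All 4 genes thus had a PHF10 peak in KO cells at 0 h and in every list at 24 and 48 h.

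The first comparison asked which ribosomal protein genes carried PHF10 before and after TGFβ1 in control cells. At 0 h, 28 of the 80 genes (35.0% [24.7 to 46.5]) had a peak in replicate 1 and 59 (73.8% [62.7 to 83.0]) in replicate 2, where the background stood at 58.4% and 75.8%. All 28 genes of replicate 1 were among the 59 of replicate 2. A peak in both lists was therefore found at 28 genes, against 55.6% of the background, and in neither at 21 genes (26.2%), against 21.3%. At 24 h, 75 genes (93.8%) had a peak against 93.3%, and at 48 h 77 (96.2%) against 92.1% in replicate 1 and 78 (97.5%) against 98.7% in replicate 2. A peak in both 48 h lists was found at 75 genes (93.8%) against 91.4%. In replicate 1 at 0 h the ribosomal protein genes thus lay below the background, and at 24 and 48 h near it.

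On average 43.5 ± 21.9 genes (SD, n = 2) had a PHF10 peak before treatment. After 48 h the number was 77.5 ± 0.707 (SD, n = 2). The means differed by 34 genes (exact two-sided permutation test, p = 0.33, the smallest p that 2 against 2 libraries can give). In percentage points the share was 42.5 higher at 48 h in the 80 genes and 28.3 higher in the background. Without replicate 1 at 0 h the difference in the 80 genes was 23.1 points. The 48 h lists are longer (43549 and 102434 peaks against 11285 and 14731), and at equal list length the difference turned to -3.12 points in the ribosomal protein genes and -19.5 in the background. With peaks of fold 5 or more it was -16.2 and -28.2 points. The direction of the difference thus changed with the length of the lists and with the fold required.

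In 16 of the 80 genes (20.0%) a PHF10 peak was present in both 48 h lists and in neither 0 h list, against 16.1% of the background. Named in the order of the mean of their folds in the 2 lists at 48 h, a value used for naming only, they began with Rps24 (3.87), Rpl27a (3.84), Rpl6 (3.65) and Rpl10l (3.48), followed by Rpl37rt, Rpl29, Rpl8, Rps26, Rpl37a and Rpl23a between 3.36 and 2.89. Already at 24 h, 17 genes (21.2%) had a peak and none in the 0 h lists, against 15.2%, led by Rpl6 (5.35), Rps24 (4.91) and Rpl23a (4.67). None of the 80 genes and none of the 13869 background genes had PHF10 in both 0 h lists and in neither 48 h list. Rpl6 encodes a large subunit protein and Rps24 a small subunit protein.

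By subunit the PHF10 counts differed little. In replicate 1 at 0 h, 16 of 42 large subunit genes (38.1%) and 10 of 30 small subunit genes (33.3%) had a peak, and in replicate 2, 31 (73.8%) and 23 (76.7%). Genes of the mitochondrial ribosome had 27.4% and 74.0% of 73, whereas translation factors had 66.7% and 88.9% of 36 and ribosome biogenesis factors 40.6% and 81.2% of 32. In replicate 1 the cytosolic and mitochondrial ribosomal protein genes and the ribosome biogenesis factors were thus below the background. The translation factors were above it. The strongest PHF10 peaks near the ribosomal protein genes were those of Rplp0 (fold 17.1), Rpl7 (16.3) and Rps19 (13.6) in replicate 1, and of Rps3a1 (5.85), Rpl17 (5.52) and Rpsa (5.49) in replicate 2. Within each 0 h list their median percentile was 50.7 and 48.0 against 61.0 and 57.9 for the background. Peaks at these genes were also narrower, with a median of 372 bp against 552 bp in replicate 1 and 395 bp against 575 bp in replicate 2.

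A peak within 2 kb of either end need not lie at the gene's start. Of the genes with a single start in the table, 13 of 14 in replicate 1 and 33 of 36 in replicate 2 had their strongest PHF10 peak nearer to the start than to the other end. These shares (92.9% and 91.7%) were near those of the background (91.5% and 91.0%). The exceptions among the ribosomal protein genes included Rplp0 on chromosome 5, which encodes the base of the ribosomal stalk. Its strongest PHF10 peak at 0 h (115565119 to 115565656) lay beyond the far end of the gene (115559467 to 115563729). The strongest H3K14ac peak at 0 h and H3K18ac peak at 48 h assigned to Rplp0 lay there as well (115565182 to 115565582 and 115565125 to 115565677). On chromosome 1, the replicate 1 PHF10 peak assigned to Rpl7 (16104979 to 16106207) also lay outside the gene (16101295 to 16104433). Its H3K14ac peak at 0 h did so too (16105428 to 16105691).

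The second comparison asked how the loss of PBRM1 changed PHF10 at these genes. At 0 h, 43 genes (53.8% [42.2 to 65.0]) had a peak in KO cells against 66.2% of the background, which lay between the control replicates. The KO share minus the control mean was -0.625 points, less than the spread between the 2 control libraries (27.4 points, SD). A peak in both control lists and not in KO was found at 3 genes (3.75%) against 1.34% of the background. Those were Rpl31 (8.69 and 4.02 in control), Rps7 (4.34 and 3.77) and Rpl35a (4.11 and 2.76). The 2 control peaks of Rpl35a lay at different places on chromosome 16 (33057966 to 33058251 and 33056426 to 33056723). They were weak, with percentiles of 11.5 and 0.278, and the replicate 1 peak of Rps7 had a percentile of 14.3. A peak in KO and in neither control list was found at 4 genes (5.00%) against 1.22%: Rpl23a (5.49), Rps15 (4.71), Rpl27a (4.26) and Rps24 (3.95). Rpl35a, Rps7 and Rps24 encode ribosomal proteins mutated in Diamond-Blackfan anaemia. With 1 KO library none of these differences has a replicate check.

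At 48 h all 80 genes had a PHF10 peak in KO cells, against 99.5% of the background, from a list of 158815 peaks. None of the 80 had a peak in both control lists and not in KO (background 0.159%), and none had it in KO and in neither control list (background 0.404%). The KO share minus the control mean was 3.12 points, and -20.0 points with peaks of -log10 q of 5 or more and -18.1 points at equal list length, where the background moved by -13.2 and -21.7 points. Between 0 and 48 h, 37 genes (46.2%) had a peak only at 48 h in KO cells against 33.3%, led by Rpl32l (5.63), Rpl4 (3.96), Rps26 (3.82) and Rpl10l (3.81). Rpl32l is a copy of Rpl32 outside the core list.

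**Figure D2:**
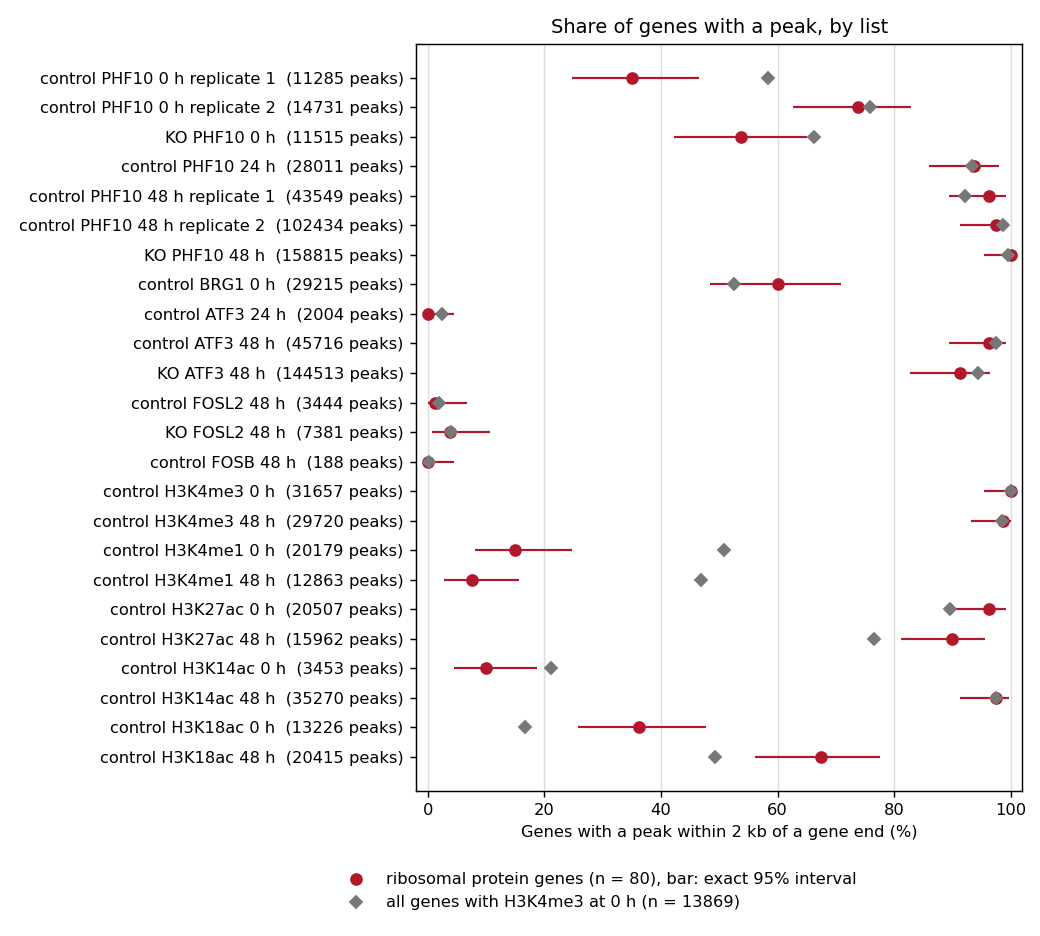
Share of the 80 ribosomal protein genes (red, with exact 95% intervals) and of the 13869 background genes (grey diamonds) with a peak within 2 kb of a gene end, for each list of more than 100 peaks (list length in brackets). The ribosomal protein genes lie far below the background for H3K4me1 (15.0% against 50.9% at 0 h) and above it for H3K18ac (36.2% against 16.7% at 0 h).

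BRG1 was compared with PHF10 in untreated control cells. A BRG1 peak was found at 48 of the 80 genes (60.0% [48.4 to 70.8]) against 52.5% of the background, a background share inside the interval. The shares were 64.3% of 42 large subunit genes, 63.3% of 30 small subunit genes and 2 of 8 genes outside the core. The peaks were weak within their list, with a median percentile of 26.9 against 41.3. The strongest were those assigned to Rpl23a (3.60), Rpl24 (3.35) and Rpl23 (3.22), all large subunit genes. The Rpl23a peak on chromosome 11 (78176643 to 78179118) lay outside the gene (78180935 to 78183584). The Rpl24 peak lay nearer to the far end of its gene than to the start. In the 39 genes with no other protein-coding gene end within 2 kb, the share was 46.2% against 49.3%, and with peaks of -log10 q of 5 or more 1 gene was left (1.25% against 1.64%). The direction of this small difference thus changed with neighbouring genes and with the peak threshold. A BRG1 peak with PHF10 in both control lists was found at 21 genes (26.2%) against 36.2%, and a BRG1 peak with PHF10 in neither at 9 (11.2%) against 6.16%.

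The centres of these weak BRG1 peaks were placed differently from those of PHF10 peaks. The BRG1 peaks were also wider, with a median of 808.5 bp against 395 bp for PHF10 in replicate 2. The part of peak width in the position was not tested. Among the 30 genes with a single annotated start and a BRG1 peak within 2 kb of it, 14 (46.7%) had the centre of the strongest peak more than 500 bp downstream of the start, against 20.4% of 4251 background genes. The median position was 406 bp downstream, against 207 bp. The 14 genes were Rpl11 (647 bp), Rpl9, Rps18, Rpl6, Rps3, Rpl27, Rpl12, Rpl23, Rpl41, Rps2, Rpsa, Rps26, Rpl35 and Rps27 (1847 bp). None of 34 genes with a PHF10 peak in replicate 2 had its centre that far downstream, against 8.93% of the background. With the peak nearest to the start in place of the strongest, 13 of 30 genes (43.3%) had BRG1 that far downstream, against 19.9%. In genes with no other gene end within 2 kb it was 5 of 13 (38.5%) against 22.0%. Where both factors had a peak, the peaks overlapped in 15 of 21 genes (71.4%) against 89.3% for replicate 1 and in 27 of 39 (69.2%) against 88% for replicate 2. Ribosomal protein genes are short (median 3206 bp against 22320 bp), and a window of 2 kb holds more of such a gene. The part of gene length in the position of BRG1 was not tested.

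**Figure D3:**
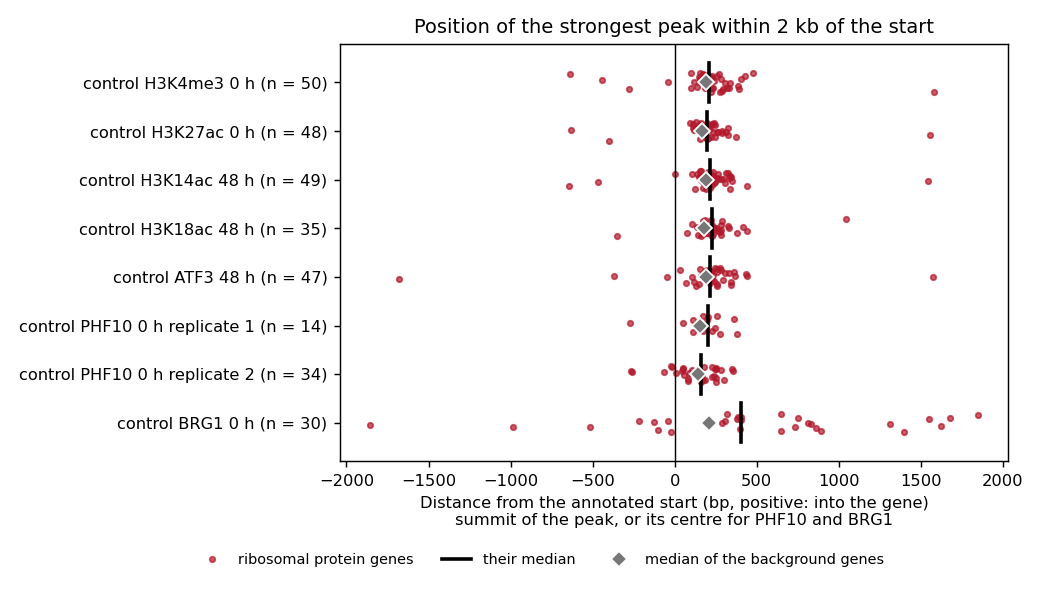
Distance (horizontal axis, bp) from the annotated start to the summit of the strongest peak, or to its centre for PHF10 and BRG1, for ribosomal protein genes with a single start (red points, black line at their median) and the median of the background genes (grey diamonds). Marks, ATF3 and PHF10 cluster a short way downstream of the start, and BRG1 is spread with a median of 406 bp.

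The marks of active promoters were compared between 0 and 48 h of TGFβ1 in control cells. H3K4me3 was present at 79 of the 80 genes at 48 h (98.8%) against 98.4% of the background, and the gene that had it at 0 h only was Rpl32l (fold 5.85), while 1.56% of the background did so. Its peaks were strong within the lists, with a median percentile of 82.2 at 0 h against 79.3 and of 79.9 at 48 h against 78.3. Rpl11, which binds MDM2 when ribosome assembly fails, was highest at 0 h (fold 103), followed by Rps14 (93.4) and Rpl22 (90.2). Rpl22 (71.5), Rpl17 (64.9) and Rpl14 (62.6) were highest at 48 h. The 3 lowest at 0 h were Rps4x (3.45), Rps28 (4.65) and Rpl10l (5.79).

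H3K27ac was present at 77 of the 80 genes at 0 h (96.2% [89.4 to 99.2]) against 89.5% and at 72 at 48 h (90.0% [81.2 to 95.6]) against 76.6%. All 42 large and all 30 small subunit genes with H3K4me3 had it at 0 h, and 41 and 26 of them at 48 h. So did all 73 mitochondrial ribosomal protein genes, 36 translation factors and 32 ribosome biogenesis genes at 0 h. At 48 h these had 86.3%, 97.2% and 84.4%. The median percentile of the cytosolic ribosomal protein genes at 0 h was 82.9 against 71.1, with a median fold of 89.1 against 51.1. At 48 h it was 69.2 against 67.6. The strongest at 0 h were Rpl11 (285), Rps14 (242) and Rps19 (235), and at 48 h Rpl32 (280), Rps19 (235) and Rpl14 (220). H3K27ac was present at 0 h and not at 48 h in 5 of the 80 genes (6.25%) against 13.4%: Rps27a (29.1), Rps27 (26.9), Rpl4 (15.8), Rps28 (7.32) and Rps4x (5.13). No gene showed the opposite, against 0.534% of the background. Rps27a encodes a fusion of ubiquitin with a small subunit protein.

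H3K4me1, a mark of enhancers and of promoter flanks, was rare at these genes. It was present at 12 of the 80 genes at 0 h (15.0% [8.00 to 24.7]) against 50.9% of the background and at 6 at 48 h (7.50% [2.80 to 15.6]) against 46.8%. Among the 12 genes at 0 h were Rps2 (4.37), Rpl7a (4.29), Rpl10a (4.04), Rpl18, Rpl36, Rps15, Rpl19, Rps18, Rpl36al and Rpl37rt (2.97). All 12 have another protein-coding gene end within 2 kb, and in the 39 genes without such a neighbour H3K4me1 was present at 0 at both times, against 53.3% at 0 h and 51.5% at 48 h in background genes without one. Within 2 kb of an annotated start the counts were 3 of 59 (5.08%) against 43.4% at 0 h and 2 of 59 (3.39%) against 44.0% at 48 h. Mitochondrial ribosomal protein genes had 16.4% at 0 h, translation factors 13.9% and ribosome biogenesis genes 21.9%, all likewise below 50.9%. H3K4me1 was present at 0 h only in 8 genes (10.0%) against 13.3% and at 48 h only in 2 (2.50%), Rpl35a (8.86) and Rpl7 (4.30), against 9.25%.

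H3K14ac was present at 8 of the 80 genes at 0 h (10.0% [4.42 to 18.8]) against 21.1%, in a list of 3453 peaks. Among the 8 were Rplp0 (18.5), Rps19 (10.4), Rpl17 (8.35), Rpl19 (7.68), Rpl10a (5.81), Rps6 (5.06) and Rpl7 (4.59), and all 8 had PHF10 in both control 0 h lists, as did 2915 of the background genes with H3K14ac at 0 h, against 14 with PHF10 in 1 list and 1 in neither. RPS6 is the ribosomal protein that S6 kinases phosphorylate. At 48 h the list held 35270 peaks and H3K14ac was present at 78 genes (97.5%) against 97.5%, of which 70 (87.5%) had it at 48 h only, against 76.4%. Its 48 h peaks at these genes ranked high, with a median percentile of 92.8 against 81.3 and a median fold of 36.1 against 19.6. When the 48 h list was shortened to its 3453 most significant peaks, 61.2% of the 80 genes still had one, against 26.1%. The strongest were Rps19 (75.7), whose protein is the one most often mutated in Diamond-Blackfan anaemia, Rpl32 (64.8) and Rps6 (63.8).

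H3K18ac was present at 29 genes at 0 h (36.2% [25.8 to 47.8]) against 16.7% and at 54 at 48 h (67.5% [56.1 to 77.5]) against 49.3%. At 0 h the peaks were weak, between folds of 2.69 and 8.52 with a median percentile of 22.9 against 39.2. With peaks of -log10 q of 5 or more, the shares at 0 h were 16.2% and 9.95%. The 3 highest were Rps14 (8.52), Rpl11 (6.72) and Rpl17 (6.09). At 48 h Rpl14 (76.5), Rps19 (65.8) and Rplp0 (65.3) were highest, while the median percentile was 75.5 against 83.1. H3K18ac was present at both times in 22 genes (27.5%) against 14.4%, at 48 h only in 32 (40.0%) against 34.9% and at 0 h only in 7 (8.75%) against 2.29%. Mitochondrial ribosomal protein genes had 6.85% at 0 h and 37.0% at 48 h, ribosome biogenesis genes 12.5% and 46.9%, and translation factors 50.0% and 83.3%. The mitochondrial ribosomal protein genes thus lay below the background. The ribosome biogenesis genes lay near it, with 4 of 32 at 0 h and 15 of 32 at 48 h. The cytosolic ribosomal protein genes and the translation factors lay above the background. The 0 h lists of H3K14ac and H3K18ac are in a different file format from the others, with rounded values.

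**Figure D4:**
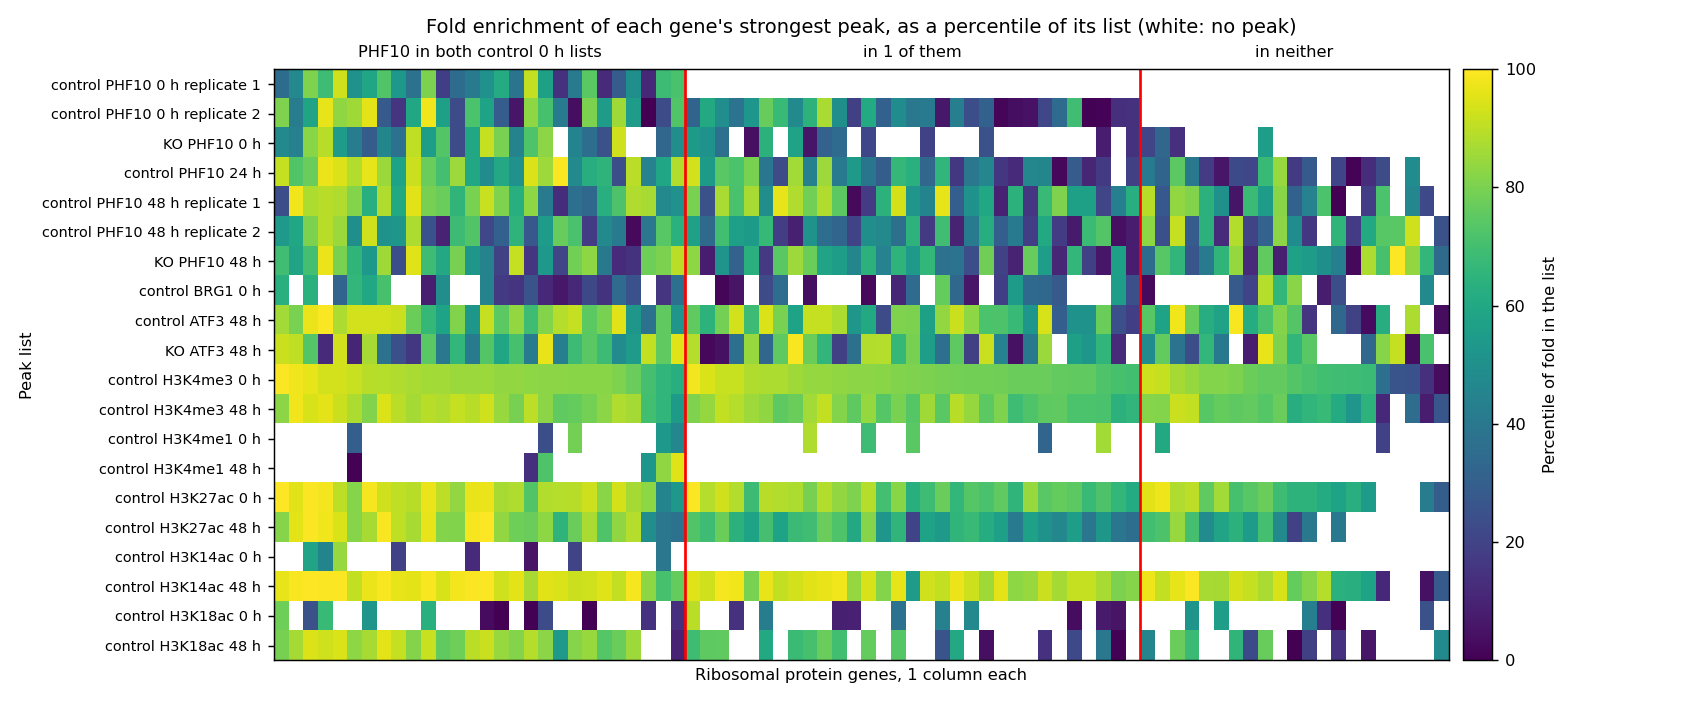
Each column is a ribosomal protein gene, each row a peak list, and the colour gives the percentile of the fold of the gene's strongest peak in its list (white: no peak). Genes are grouped by PHF10 in the control 0 h lists (28 in both, 31 in 1 and 21 in neither) and ordered by H3K4me3 at 0 h. H3K14ac at 0 h is found in 8 genes of the first group, and H3K4me1 is white for most genes.

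The 80 genes were described by their PHF10 state at 0 h: 28 genes with a peak in both lists, 31 with a peak in 1 list (replicate 2 for all of them) and 21 with none. H3K27ac at 48 h had a median fold of 106 (7.23 to 280, in 28 of 28 genes), 24.2 (4.68 to 98.7, in 31 of 31) and 24.5 (4.59 to 111, in 13 of 21) in this order. H3K18ac at 48 h was present in 26 of 28, 17 of 31 and 11 of 21 genes, with median folds of 22.4, 7.25 and 4.98. The first group thus had the higher acetylation at 48 h, with overlapping ranges. H3K4me3 at 0 h had medians of 54.2, 44.3 and 24.5. Background genes had medians of 79.7, 17.5 and 8.17 for H3K27ac at 48 h and 58.0, 33.0 and 10.6 for H3K4me3 at 0 h, so in both sets of genes the first group had the highest medians. Of the background genes, 94.8%, 76.0% and 29.9% had H3K27ac at 48 h in the same order. H3K18ac at 48 h was present in 76.6%, 21.9% and 7.57% of them. When peaks were counted within 2 kb of an annotated start only, the medians of H3K27ac at 48 h in ribosomal protein genes were 106 (20 genes), 32.5 (22 genes) and 18.8 (11 of 17 genes).

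**Figure D5:**
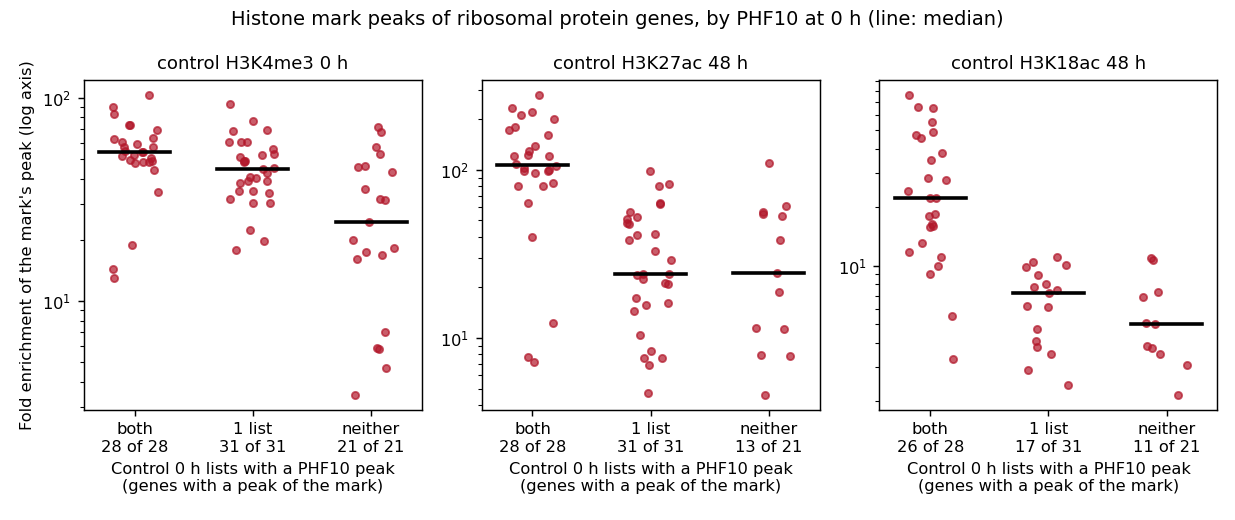
Fold of the mark's strongest peak (vertical axis, log scale) for each ribosomal protein gene (point), by the number of control 0 h lists with a PHF10 peak (horizontal axis, with the genes that have a peak of the mark), for H3K4me3 at 0 h, H3K27ac at 48 h and H3K18ac at 48 h. Lines are medians, which for H3K27ac at 48 h are 106, 24.2 and 24.5.

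In the first group, Rpl19 (7.72) and Rpl35a (12.3) lay well below Rps7 (39.9) and the group's median in H3K27ac at 48 h. They also had low H3K4me3 at 0 h for this group (14.4 and 18.8) and carried H3K4me1 at 48 h (16.9 and 8.86). RPL19 forms a bridge between the subunits. H3K4me1 at 48 h was also present at Rpl7 (4.30) and Rpl36al (2.66), and all 6 genes that had it belonged to the 28 with PHF10 in both 0 h lists. In the background it was likewise more frequent there, at 64.2% of genes with PHF10 in both lists, 32.2% with PHF10 in 1 and 17.4% with PHF10 in neither. These genes were singled out after their values were seen.

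Across the 52 ribosomal protein genes with both marks at 48 h, the folds of H3K27ac and H3K18ac were correlated (Spearman's rho 0.947, Pearson's r 0.875, a description across genes of the same cells), as they were across 6751 background genes (0.883 and 0.800). PHF10 folds of the 2 control libraries were less alike, with rho of 0.413 over 28 genes at 0 h and 0.0785 over 75 genes at 48 h. In the background rho was 0.222 over 7705 genes and -0.00244 over 12683 genes.

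ATF3, a stress-induced factor, was compared between control and KO cells. No ribosomal protein gene had an ATF3 peak at 0 h in either genotype (lists of 20 and 25 peaks), at 24 h in control (2004 peaks, 2.41% of the background) or at 24 h in KO (69 peaks). For 0 of 80 the exact interval allows up to 4.51%. At 48 h, 77 genes (96.2%) had a peak in control cells against 97.5%, and 73 (91.2%) in KO cells against 94.4%. In control cells the highest were Rpl17 (15.2), Rps26 (14.7) and Rps24 (13.6), with summits at a median of 218 bp downstream of the start. In KO cells Rps15a (6.57) and Rpl23a (5.71) were highest, and the Rps15a peak lay nearer to the far end of its gene than to the start. The strongest peak was nearer to the start than to the other end in 42 of 49 genes in control and in 28 of 46 in KO, where the background had 86.9% and 68.8%. More of the KO peaks thus lay towards the far end, in these genes and in the background.

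ATF3 was present in control and not in KO cells at 48 h in 6 of the 80 genes (7.50%) against 4.97%: Rps26 (14.7), Rpl41 (5.73), Rpl15 (5.49), Rps27a (4.90), Rpl37 (4.79) and Rps4x (3.53). Rps26, a small subunit protein at the mRNA exit channel, stood out with a percentile of 99.0 in the control list and no KO peak. It lies on chromosome 10 (128624529 to 128626506), and its ATF3 peak (128626057 to 128626511) lay within the H3K4me3 peak of 0 h. Rpl32l (5.00) and Rps28 (4.05) had ATF3 in KO only (2.50% against 1.82%). At the length of the control list, the KO list held ATF3 at 67.5% of the 80 genes against 63.4% of the background, and the control list at 96.2% against 97.5%. With 1 library per genotype none of this has a replicate check.

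FOSL2 and FOSB were rare at these genes. At 48 h, FOSL2 was found at Rps15a in control cells (fold 9.51, percentile 87.9), 1.25% of the genes against 1.85% of the background. In KO cells it was found at Rps15a (9.49), Rpl24 (5.89) and Rpl7l1 (4.79), 3.75% against 3.94%. A peak in KO only was thus present at 2 genes (2.50%) against 2.24%, and a peak in control only at none, against 0.159%. All 3 peaks lay nearer to the far end of the gene than to its start, and within 2 kb of an annotated start no ribosomal protein gene had FOSL2. In the background, 64.7% of genes with FOSL2 in control cells and 62.2% in KO cells had it nearer to the start. At Rps15a (chromosome 7, 118104374 to 118116147, minus strand) the FOSL2 peak of control cells spanned 118104659 to 118105028. No gene had FOSB at 48 h in control cells (188 peaks, 0.18% of the background) or in KO cells (31 peaks).

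The 9 ribosomal protein genes without H3K4me3 at 0 h were the core genes Rpl3, Rpl10, Rpl36a, Rpl39 and Rps9 and the genes Rpl3l, Rpl39l, Rps23rg1 and Rps27rt. Of the 4 on the X chromosome (Rpl10, Rpl36a, Rpl39 and Rps4x), Rps4x had a peak, with a fold of 3.45. Among all X-linked genes 41.5% had H3K4me3, against 64.4% on the other chromosomes, and their median fold was 15.1 against 41.5. Rps9 (7.21), Rpl3 (6.19) and Rpl39 (3.47) had an H3K27ac peak at 0 h without H3K4me3. Rps27rt had no peak in any list, and Rps23rg1 had 1 (PHF10 in KO at 48 h, 3.45). Rpl3l, the relative of Rpl3 used in muscle, and Rpl39l and Rpl10l, relatives used in the testis, had no H3K27ac at either time, and Rpl10l had H3K4me3 of 5.79 and 6.02. How reads that match both a gene and its processed copies were treated is not given in the sources used here, so an absent or weak peak is uncertain for genes with such copies.

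Of the other genes outside the core, Rpl22l1, Rps27l, Rpl36al, Rpl7l1 and Rps19bp1 had strong promoter marks. Rpl22l1, the relative of Rpl22, had H3K4me3 of 77.1 at 0 h and 42.9 at 48 h and H3K27ac of 114 and 51.0, and Rps27l, a target of p53, had 56.9 and 49.7 and 120 and 98.0. Rpl36al had 69.0 and 49.3 and 84.5 and 98.8, and Rpl7l1 had 42.5 and 46.1 and 45.3 and 24.0. Rps19bp1 had 60.8 and 45.1 and 44.2 and 23.8. Rpl37rt (7.03 and 3.80 of H3K4me3) and Rpl32l (5.85 at 0 h) had weak H3K4me3 and no H3K27ac.

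Outside the rule, Fau encodes a small subunit protein fused to a ubiquitin-like protein, and Rack1 encodes a scaffold on the small subunit. Fau had PHF10 in both control 0 h lists (10.8 and 4.54) and H3K27ac of 154 at 48 h. Rack1 had no PHF10 peak at 0 h in any list, H3K4me3 of 13.8 and no H3K27ac peak at 48 h, having had 19.7 at 0 h.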

How the data were processed

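The ribosomal protein genes and all gene lists were chosen with earlier results of these data known. Crosslinking was with disuccinimidyl glutarate and formaldehyde for PHF10, BRG1 and ATF3 and with formaldehyde only for the rest, per the labels' protocols. Per the submitters' processing notes, the tools were Bowtie2 2.3.3, fastp 0.19.5, deepTools 3.5.1, Partek 11.0.24.0325 and MACS3 3.0.0a7, with mm10. Their settings and the read totals are not given in the sources used here. There is 1 deposited list per library. Each deposited list gives a pileup signal (not used here), the −log10 of a p-value and of a q-value, and a fold enrichment over input, a ratio, all as the authors' peak caller wrote them. The lists of PHF10 and BRG1 reach down to a −log10 q of 1.00 and the others to 1.30. Peak coordinates are printed as deposited, and whether starts count from 0 or from 1 is not stated in them.

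Peaks on the autosomes and on X and Y were assigned to genes of RefSeq (GRCm38.p6) by an overlap of 1 bp with 2 kb to either side of either gene end, and the peak of highest fold stood for a gene. Starts and strands came from RefSeq's promoter table, which holds 69 of the 89 genes, and positions were taken for genes with 1 start in it. An exact permutation test compared the number of genes with a PHF10 peak between 0 and 48 h. All other comparisons rest on a single library in at least 1 arm and were not tested. Genes were named by a rule: those with a peak in 1 arm of a comparison only (by fold, up to 10 each way), the 3 strongest of each list, those lacking a peak where few did, the genes outside the core, and Fau and Rack1. Some genes that met this rule are not reported here. Python 3.11.15, pandas 2.3.3, numpy 2.4.6, scipy 1.17.1 and matplotlib 3.10.9 were used, and the assignment was tested on simulated data. Alternatives changed the peak threshold, the window, the overlap, the list length, the background, the ranking, the promoter window, the genes and the replicates. Leaving out genes with a neighbour, taking the nearest peak, counting the PHF10 groups from starts only and letting the pyrimidine run begin near the start were chosen after seeing the data.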

Additional observations from a re-analysis of the deposited data

How the results depend on the processing

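Of 311 alternative values, 278 were counted as the same, 29 moved and 4 reversed. For PHF10 at 48 h minus 0 h, the same meant the same direction. For PHF10 in KO minus control it meant closer to the reported value than the SD of the 2 control libraries. For shares of the other factors and the marks it meant closer to the reported value than its interval's width divided by 2. Such a value can lie outside the interval. For peak positions and promoter motifs it meant inside the interval. For the 60 values of rank within a list it meant between the quartiles of the ribosomal protein genes, a wide range that reflects the spread across genes. Of the 278, 23 had the other sign than the reported value, so those small differences have no settled direction. Differences are in percentage points, ribosomal protein genes minus background unless stated otherwise, and except where the construction shows it the cause was not tested. PHF10 at 48 h minus 0 h (42.5) reversed with fold of at least 5 (-16.2) and at equal list length (-3.12). PHF10 in KO minus control at 48 h (3.12) reversed with −log10 q of at least 5 (-20.0) and at equal list length (-18.1), and was 0.625 with fold of at least 5 and 7.87 over all 89 ribosomal protein genes. KO minus control at 0 h (-0.625) was 9.38 with −log10 q of at least 5, 13.1 with fold of at least 5 and 3.12 at equal list length, each closer to it than the SD of the 2 control libraries (27.4). BRG1 (7.50) was -0.394, -0.188 and -3.15 with −log10 q of at least 5, with fold of at least 5 and without genes that have a neighbour. Leaving out 1 control library gave 23.1 to 61.9 for PHF10 at 48 h minus 0 h, -20.0 to 18.8 for KO minus control at 0 h and 2.50 to 3.75 at 48 h. With the replicate number as a block, PHF10 at 48 h minus 0 h stayed at 42.5 (exact sign-flip test, p = 0.50, the smallest p that 2 differences can give). The within-number differences were 49 and 19 genes. The replicates were not taken as paired, since only 2 numbers exist and their deviations had a correlation of 0.114 over 7535 genes.

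With all 89 ribosomal protein genes set against all protein-coding genes, in place of those with H3K4me3 in both, the differences were 22.8 for control ATF3 at 48 h, 15.7 for KO ATF3 at 48 h, 25.4 for H3K4me3 at 48 h, -19.5 and -23.0 for H3K4me1 at 0 and 48 h, 32.3 and 32 for H3K27ac, 24.0 for H3K14ac at 48 h and 29.6 for H3K18ac at 48 h. Against genes with H3K27ac at 0 h, H3K27ac at 0 h gave 0.0 by construction. With −log10 q of at least 5 they were -0.101 for control ATF3 at 24 h, 4.81 for KO ATF3 at 48 h and 6.30 for H3K18ac at 0 h. With fold of at least 5 they were -0.433 and -30.2 for H3K4me1 at 0 and 48 h, 16.3 for H3K27ac at 0 h and 3.74 for H3K18ac at 0 h. At equal list length they were -0.0288 and 4.12 for control ATF3 at 24 h and KO ATF3 at 48 h, -23.7 for H3K4me1 at 0 h, 13.7 for H3K27ac at 0 h and 35.1 for H3K14ac at 48 h. H3K4me1 gave -53.3 and -51.5 at 0 and 48 h without genes that have a neighbour, and -32.3 at 48 h in a window of 5 kb. In promoters, NRF1 was found in 0.0% of genes before the start only, and the pyrimidine run in 57.4% when it could begin within 10 bases of the start. The number of reads is unknown, and with 1 library for each mark and KO state no difference between times or genotypes has a replicate check.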
